A study of Mus musculus with 24 samples.

Results

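The 10 genes described here are immediate early genes, chosen by symbol from the 26267 genes of the deposited table: Fos, Fosb, Jun, Junb, Jund, Egr1, Ier2, Dusp1, Atf3 and Zfp36. All 10 were found by name in the table. They were read in 24 libraries of polyadenylated RNA from mouse LSK cells, the sorted bone marrow fraction without lineage markers but with Sca-1 and Kit on its surface, which holds the blood stem cells and their first progeny. Genotypes were wild type (WT), knockout of the Fanconi anaemia gene Fancg (FancgKO), transgenic for the p53 inhibitor Mdm4 (Mdm4Tg), and knockout with transgene (FancgKO_Mdm4Tg). Treatment was PBS or poly(I:C), which mimics viral double-stranded RNA and sets off an interferon response. With PBS there were 4 WT, 4 FancgKO, 3 Mdm4Tg and 3 FancgKO_Mdm4Tg libraries. The poly(I:C) libraries were 2 Mdm4Tg, 2 FancgKO_Mdm4Tg, 3 WT and 3 FancgKO. The labels give no age, dose, time after injection, knockout allele or promoter of the transgene, and do not say that replicates were separate animals, so the p-values reflect the spread among these libraries, which may be technical.

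Each library title carries a replicate number and an ending. Numbers 6 and 7 go with the ending _d, and numbers 2, 4 and 8 with the ending _d_2. Of the 12 libraries ending in _d, 6 had PBS and 6 had poly(I:C). Of the 12 ending in _d_2, 8 had PBS and 4 had poly(I:C). Number 2 holds 4 libraries, all with PBS, number 4 a single FancgKO library with PBS, and number 7 all 8 groups. What the endings stand for is not stated, so they are used here only as labels.

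Immediate early genes are transcribed within minutes of a stimulus from factors already present in the cell, with no need for new protein. Fos, Fosb, Jun, Junb, Jund and Atf3 encode leucine-zipper proteins that pair into the transcription factor AP-1 and its relatives, and Egr1 encodes a zinc-finger transcription factor. Dusp1 encodes a phosphatase that switches off MAP kinases, Zfp36 encodes tristetraprolin, which speeds the decay of mRNAs with AU-rich elements, and Ier2 encodes a small nuclear protein. The group is known to respond to growth factors, cytokines and stress, and also to the handling of tissue while cells are isolated.

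The promoters of 8 members were read from RefSeq (GRCm38.p6), as the 250 bases before the start site. Those of Egr1 and Ier2 were not analysed here. The start sites lay 53656 bases from the GENCODE gene start for Dusp1, 34706 for Atf3, 1210 for Jund and 1025 for Zfp36. For the others the distance was at most 30 bases. Windows of 4 members are shown because the members moved together across libraries and because each window holds a different set of the motifs searched. Both strands were searched for the cyclic AMP response element (CRE, TGACGTCA), its core TGACG, which every full CRE also contains, the AP-1 site TGANTCA, the TATA sequence TATAAA, and the CArG box bound by serum response factor. Capitals mark every match.
Fos promoter (chr12:85473640-85473889, + strand): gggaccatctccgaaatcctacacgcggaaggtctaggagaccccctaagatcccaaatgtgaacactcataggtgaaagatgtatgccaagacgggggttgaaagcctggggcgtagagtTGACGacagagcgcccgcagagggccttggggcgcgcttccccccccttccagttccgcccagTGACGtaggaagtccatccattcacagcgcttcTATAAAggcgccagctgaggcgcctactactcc
Fosb promoter (chr7:19310046-19310295, - strand): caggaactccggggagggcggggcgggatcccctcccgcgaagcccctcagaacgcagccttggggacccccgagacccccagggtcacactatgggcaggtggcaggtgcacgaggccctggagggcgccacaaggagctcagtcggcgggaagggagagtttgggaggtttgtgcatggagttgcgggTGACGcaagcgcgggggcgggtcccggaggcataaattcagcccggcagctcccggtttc
Dusp1 promoter (chr17:26508473-26508722, - strand): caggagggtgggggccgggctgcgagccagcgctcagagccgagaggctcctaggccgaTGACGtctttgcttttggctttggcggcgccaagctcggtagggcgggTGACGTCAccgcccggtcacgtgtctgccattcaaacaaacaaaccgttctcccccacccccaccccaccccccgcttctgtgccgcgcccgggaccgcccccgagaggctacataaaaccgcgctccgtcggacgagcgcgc
Zfp36 promoter (chr7:28379229-28379478, - strand): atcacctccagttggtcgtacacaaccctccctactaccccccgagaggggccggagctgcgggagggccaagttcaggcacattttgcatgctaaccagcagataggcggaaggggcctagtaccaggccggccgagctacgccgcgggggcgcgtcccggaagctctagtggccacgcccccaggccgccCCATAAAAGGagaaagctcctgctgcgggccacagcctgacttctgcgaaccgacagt
The Fos window held the CRE core with its first base at positions -129 and -66 from the start site, and TATAAA at -33. The Fosb window held the core at -60. The Dusp1 window held a full CRE at -143, with the core matching once on each strand of it, at -143 and -140, and a further core at -191. The Zfp36 window held a CArG box at -58. The core was found in 5 of the 8 member windows (Fos, Fosb, Junb, Dusp1 and Atf3), against 17.8% of 32851 windows of the same length. The full CRE was found in 1 member window (1.55% of all windows), TATAAA in 1 (12.4%), the CArG box in 1 (1.47%) and the AP-1 site in 0 (6.75%). A match is a description of these letters only.

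The libraries held between 807686 and 8229715 reads (median 2583130). Mdm4 was at 5023 to 7105 normalised counts in the 10 libraries with the transgene and at 750.9 to 1293 in the other 14. Fancg was at 26.13 to 71.41 in the 12 libraries labelled FancgKO or FancgKO_Mdm4Tg and at 41.25 to 78.37 in the other 12. Whether these gene-level counts cover the part deleted is not stated, so they do not check the knockout label. Of the 15 stem cell and LSK markers listed, Kit (1483 to 2414) and Cd34 (1153 to 2457) were high in every library. Ly6a, which encodes Sca-1, was at only 11.69 to 45.91. Also low on this list were Procr (1.479 to 39.1), Slamf1 (11.96 to 60.89) and Tek (15.91 to 84.94). Of 8 T and NK cell markers, Nkg7 was at 121.8 to 353.6 in the _d libraries and 96.84 to 304.2 in the _d_2 libraries. The others reached at most 7.955 (Trbc1), with Cd3g at 0 in every _d library and at most 0.3129 in the _d_2 libraries. With PBS, the summed level of 16 granulocyte and monocyte markers was 4117 to 14587 in the _d libraries and 1696 to 3703 in the _d_2 libraries, without overlap, and that of 15 stem cell and LSK markers was 6060 to 8465 and 7776 to 9887. With poly(I:C) the granulocyte and monocyte sum was 6180 to 24082 and 9420 to 15171, and the stem cell and LSK sum 4676 to 7408 and 5182 to 6255. Mpo was the largest part of the granulocyte and monocyte sum, at 2973 to 16377 in the _d and 1133 to 9875 in the _d_2 libraries. S100a8, S100a9, Ngp, Camp and Ltf reached at most 17.45. Of the 12 genes tested from that list, 7 were called higher with the ending _d and 0 lower, against 21.7% and 23.6% of all genes. Xist was at 362.5 to 20207 in 6 libraries, all ending in _d, and at most 24.78 in the other 18. In bulk RNA, fewer cells of a type and less RNA per cell cannot be told apart.

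All 10 members were called higher in the libraries ending in _d than in those ending in _d_2, and for 9 of them, all but Egr1, every _d library lay above every _d_2 library. Together they took 0.205% to 0.591% of all reads in the _d libraries and 0.016% to 0.0711% in the _d_2 libraries. Fos had a median of 2450 normalised counts in the 12 _d libraries (1241 to 4035) and of 97.7 in the 12 _d_2 libraries (31.82 to 229.1). Fosb, its close relative, had a median of 2687 (1101 to 4239) and of 97.51 (23.87 to 253.3). For both genes the lowest _d library stood more than 4-fold above the highest _d_2 library, at 5.42-fold for Fos and 4.35-fold for Fosb.

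Among the Jun proteins, the usual partners of Fos, Jun had a median of 1982 normalised counts in the _d libraries (1270 to 2897) and of 230.3 in the _d_2 libraries (151.1 to 450.8). Junb had medians of 215 (131.8 to 284.9) and 41.27 (17.17 to 74.52). Jund, often described as the least inducible of the Jun genes, had medians of 341.8 (254.2 to 465.4) and 55.75 (33.76 to 105.4). None of the Jun genes overlapped between the endings.

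Egr1 had a median of 474.2 in the _d libraries (129.3 to 901.6) and of 25.4 in the _d_2 libraries (12.52 to 292.5), and was the only member whose ranges overlapped. The overlap came from the FancgKO library with PBS and number 4, at 292.5. The other 11 _d_2 libraries reached at most 57.98. Dusp1 and Zfp36, whose products limit signalling and mRNA lifetime, were separated. Dusp1 had medians of 861.5 (589.5 to 1091) and 103.3 (47.73 to 239.7), and Zfp36 had medians of 584.9 (351.6 to 1025) and 71.62 (34.47 to 244). Ier2 had medians of 349.5 (212.2 to 437.8) and 60.37 (26.52 to 117.3). Atf3, a stress-induced relative of the AP-1 proteins, was the lowest member, at 3.594 to 19.47 in the _d libraries and 0 to 1.907 in the _d_2 libraries. It had 138 reads in all _d libraries together and 6 in all _d_2 libraries, of which 7 had no read.

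**Figure D1:**
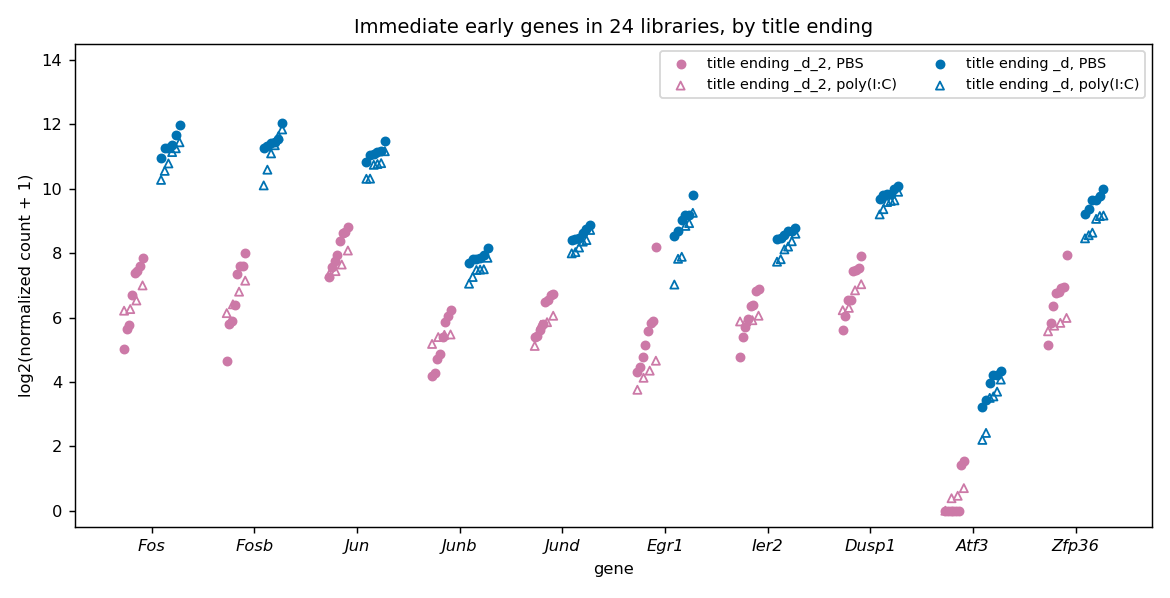
Each point is 1 of the 24 libraries, on the log2(normalised count + 1) scale, with libraries ending in _d_2 at the left and in _d at the right of each gene, filled circles for PBS and open triangles for poly(I:C). The clouds are apart for 9 members, and for Egr1 a single _d_2 library at 292.5 normalised counts reaches into the _d range.

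These differences were tested in a limma fit with 8 group means and the title ending, over the 12628 genes that reached a normalised count of 10 in 2 or more libraries. Effects are differences of log2(normalised count + 1), which understates changes of low genes. The p-values for the ending treat the libraries as independent. Each replicate number has a single ending, and members also differed between numbers within an ending. These p-values are therefore too small and the SEs too narrow. Of the 10 members, 10 were called higher with the ending _d at a limma adjusted p under 0.05, where 21.7% of all genes tested were called higher, 23.6% lower and 45.3% in either direction. Atf3 passed the filter only through the _d libraries, so it had to differ, and without it the count was 9 of 9. The difference was 4.64 ± 0.26 for Fos (SE, n = 12 and 12, a 25-fold difference; limma adjusted p = 7.47e-12) and 4.76 ± 0.29 for Fosb (27.1-fold; limma adjusted p = 3.96e-11). It was 3.03 ± 0.15 for Jun (8.19-fold), 2.42 ± 0.21 for Junb (5.35-fold) and 2.56 ± 0.15 for Jund (5.88-fold). Egr1 differed by 3.77 ± 0.35 (13.6-fold; limma adjusted p = 2.92e-08). For Dusp1 it was 3.00 ± 0.20 (8-fold), for Zfp36 3.02 ± 0.20 (8.11-fold), for Ier2 2.41 ± 0.19 (5.32-fold) and for Atf3 3.24 ± 0.31, with limma adjusted p-values of at most 4.88e-08 for these. The Atf3 value rests on few reads and ran from 1.64 with a pseudocount of 5 to 5.07 with DESeq2, so its place in the order is uncertain.

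Ordered from the gene most raised with the ending _d to the one most lowered, the members lay at the upper end. Fosb ranked 2, Fos 3, Egr1 5, Atf3 8, Jun 12, Zfp36 13, Dusp1 14, Jund 20, Junb 21 and Ier2 22 of 12628. Every _d library was above every _d_2 library for 9 of the 10 members, and for 287 of all genes tested (2.27%). Without Atf3 this was 8 of 9. The 8 groups explained 2.51% to 6.24% of the variance of the members' log2 values and the title ending alone 77.8% to 92%. With PBS the higher granulocyte and monocyte marker sum goes with the same ending, while with poly(I:C) its medians were 12605 (_d) and 12713 (_d_2). The high Xist of some libraries also goes with the ending _d. The mitochondrial share of reads was 4.73% to 6.89% in the _d and 4.85% to 9.49% in the _d_2 libraries. The 6 _d libraries with Xist at most 24.78 had Fos at 1507 to 4035. The part of the marker sums, Xist and the mitochondrial share in the difference was not tested.

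**Figure D2:**
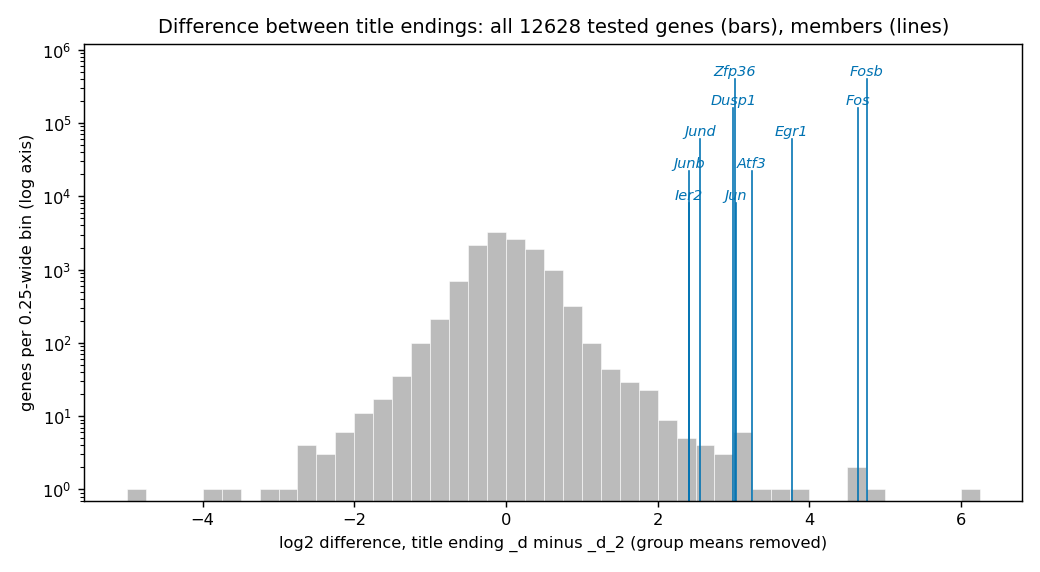
Bars count the 12628 tested genes in bins of the log2 difference between title endings (_d minus _d_2, log axis for the counts), and lines mark the 10 members. The members lie between 2.41 (Ier2) and 4.76 (Fosb), while the median of all genes is -0.02.

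The replicate number divided the libraries further. In a limma fit with group means and replicate number, 10 of 10 members were called for the number at an adjusted p under 0.05, against 50.8% of all genes. Atf3 again had to differ, and without it the count was 9 of 9. Group and number together explained 93% to 98.7% of the members' variance. Within the _d_2 libraries with PBS, Fos was at 31.82 to 103.9 in the 4 libraries with number 2, at 229.1 in the library with number 4 and at 167, 173.6 and 193.8 in the 3 libraries with number 8. Number 2 was thus the lowest, with no overlap with number 8. The same held for 8 members, all but Atf3 and Zfp36, whereas 3.67% of all genes tested had the number 8 libraries above all number 2 libraries. Egr1 was at 18.8 to 34.33 with number 2 and 47.16 to 57.98 with number 8, and Jun at 151.1 to 245.1 and 335.2 to 403.4.

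In the test of number 8 against number 2, added after these values were seen, 7 members were called higher by limma, against 0.309% of all genes tested (39 genes). Junb was higher by 1.28 ± 0.17 (SE, n = 7 and 4; limma adjusted p = 0.00158), and ranked first of all genes by p. Fos was higher by 1.46 ± 0.21 (limma adjusted p = 0.00268) and Fosb by 1.75 ± 0.26 (limma adjusted p = 0.00323), ranking 2 and 3. Jun (0.70 ± 0.15), Jund (0.82 ± 0.17), Ier2 (1.03 ± 0.18) and Dusp1 (1.17 ± 0.20) were also called, at limma adjusted p-values of 0.00992 to 0.0309. Egr1 (0.74 ± 0.27), Zfp36 (0.66 ± 0.19) and Atf3 (0.27 ± 0.51) were not, at 0.16 to 0.861. The count was 3 with edgeR, 7 with DESeq2 and 1 without limma's mean-variance trend, and it fell to 3 when the FancgKO_Mdm4Tg library with PBS and number 2 was left out. That library is the shallowest of number 2, with 949156 reads.

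Between numbers 7 and 6, which share the ending _d, 0 members were called by limma, 2 had an unadjusted p under 0.05, edgeR called 1 and DESeq2 0, and 6.9% of all genes were called. The largest difference was that of Egr1, higher with number 7 by 0.77 ± 0.26 (SE, n = 8 and 4; limma adjusted p = 0.0657). With PBS, Egr1 was at 366.6 and 585.8 with number 6 and at 411.6 to 901.6 with number 7, so the ranges overlapped.

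**Figure D3:**
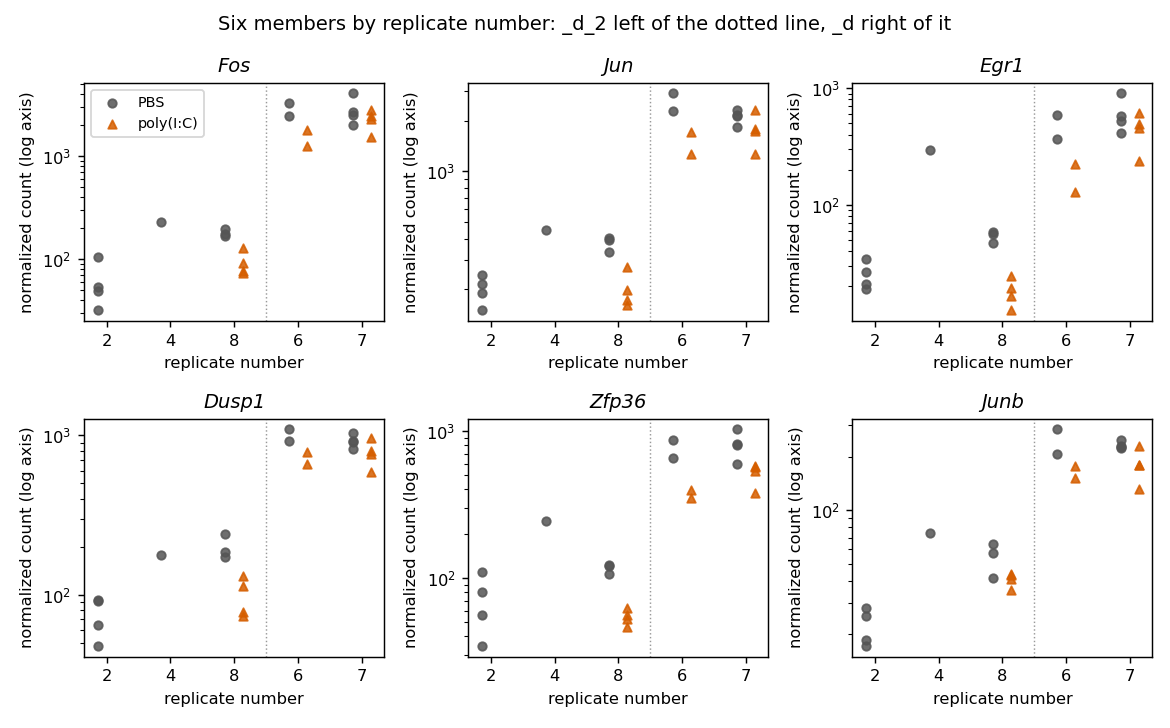
Normalised counts (log axis) of 6 members by replicate number, grey circles for PBS and orange triangles for poly(I:C), with the _d_2 numbers left of the dotted line and the _d numbers right of it. Number 2 lies lowest among the PBS libraries, except for Zfp36, where it reaches 110.6 and number 8 starts at 106.9. The poly(I:C) libraries of number 8 lie below its PBS libraries for Fos (73.22 to 126.9 against 167 to 193.8).

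The members varied together. After group means were removed, Pearson's r between 2 members over the 24 libraries was 0.861 to 0.997 for the 45 pairs, with a median of 0.980. After the title ending was removed as well, r was 0.528 to 0.962 for the 36 pairs without Atf3, and down to -0.095 with it. Fos and Jun remained the most alike, at 0.962. These values share libraries and depth and are given as a description. Among other genes with a mean normalised count of at least 50, Rgs1, a regulator of G-protein signalling, was among the 5 most alike for 8 members (r = 0.991 with Fos). Rhob, a small GTPase, was so for 6 members, Klf6, a zinc-finger factor, for 5, Gm37352 for 5, Vmp1 for 5, and Ppp1r15a, a phosphatase subunit of the integrated stress response, for 4. Gm37352 had an r of 0.993 with Jun, and Ppp1r15a an r of 0.988 with Fosb.

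Poly(I:C) was compared with PBS first with group means only. Averaged over the 4 genotypes, 0 of 10 members were called by limma and 0 by either edgeR or DESeq2, with 0 at an unadjusted limma p under 0.05, while 23.6% of all genes tested were called. The differences ran from -0.37 ± 0.87 for Egr1 to 0.61 ± 1.05 for Fosb (SE, n = 14 with PBS and 10 with poly(I:C)), each smaller than its SE. The endings are unevenly spread over the treatments, and the spread between them is within these SEs. With the title ending in the fit, 3 members were called lower with poly(I:C), against 16.4% of all genes: Jun fell by 0.44 ± 0.15 (limma adjusted p = 0.0262), Egr1 fell by 0.99 ± 0.35 (limma adjusted p = 0.032) and Zfp36 fell by 0.76 ± 0.21 (limma adjusted p = 0.00788).

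With the replicate number in the fit, 9 of 10 members were called lower with poly(I:C), all but Atf3, against 14.9% of all genes called lower and 16% called higher. Egr1 fell by 1.03 ± 0.18 on the log2 scale (SE, n = 14 and 10; limma adjusted p = 0.000337), and Zfp36 fell by 0.85 ± 0.13 (limma adjusted p = 9.64e-05). Fos fell by 0.65 ± 0.14 (limma adjusted p = 0.00172), Fosb fell by 0.61 ± 0.18 (0.0117) and Jun fell by 0.58 ± 0.10 (0.000265). Dusp1 fell by 0.56 ± 0.14, Ier2 fell by 0.52 ± 0.12, Jund fell by 0.51 ± 0.11 and Junb fell by 0.42 ± 0.11, at limma adjusted p-values of 0.00223 to 0.0084. Atf3 differed by -0.45 ± 0.35 (limma adjusted p = 0.351). The count was 9 as well with TMM scaling, edgeR and DESeq2 in the same design, and with each of the 24 libraries left out in turn. In this fit the number 4 library is matched exactly and adds nothing, and the number 2 libraries, all with PBS, add nothing to the treatment effect beyond the differences between genotypes. Within 1 ending alone, without the number in the fit, limma called 0 members. In the 12 _d libraries, where 0% of all genes were called, the differences were -0.25 to -0.83 and 8 members had an unadjusted p under 0.05. In the 12 _d_2 libraries, where 34% of all genes were called, they were -1.3 to 0.18 and 1 member had an unadjusted p under 0.05.

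**Figure D4:**
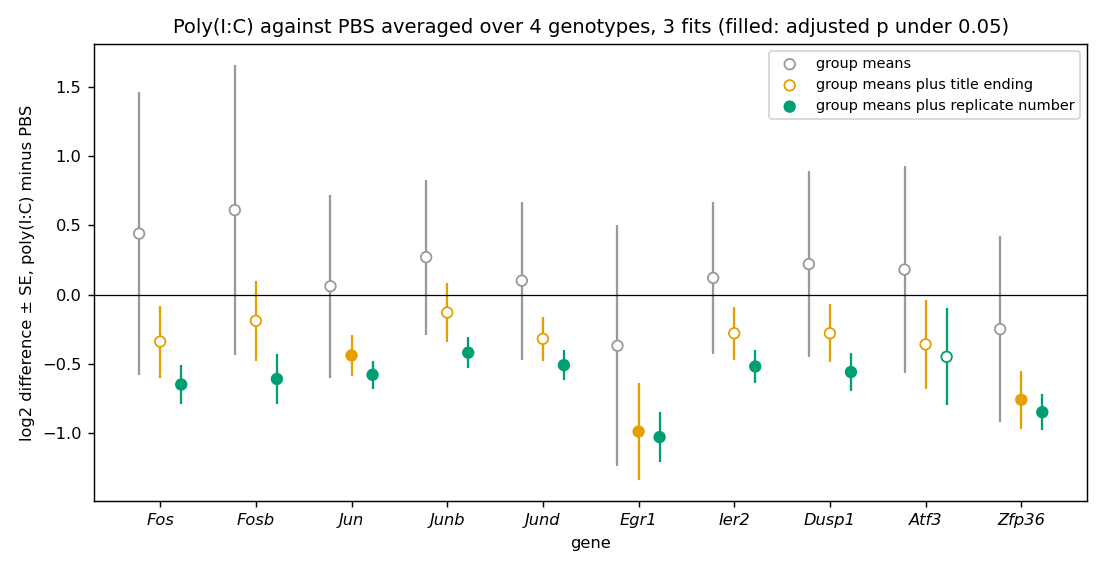
Log2 difference (poly(I:C) minus PBS, averaged over 4 genotypes) with its SE for each member in 3 fits, filled where the limma adjusted p was under 0.05. With group means alone the values lie around 0 with wide errors, and with replicate number 9 members lie between -0.42 and -1.03 and are filled.

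The direction can be read from libraries that share genotype and number, 9 pairs in all. Xist differed within some of these pairs. It was at 24.78 with PBS and 5943 with poly(I:C) in WT number 6, and at 3.345 and 20207 in WT number 7. In FancgKO it was at 7800 and 13767 for number 6 and at 18007 and 362.5 for number 7. In such pairs treatment and Xist cannot be told apart. In the other pairs Xist was at most 3.929. Zfp36 was lower with poly(I:C) in 9 of 9 pairs. In WT it was at 867.2 with PBS and 397.4 with poly(I:C) for number 6, at 811 and 575.2 for number 7, and at 119.9 and 46.62 for number 8. In the libraries labelled FancgKO it was at 658.8 and 351.6 for number 6 and at 594.6 and 568.8 for number 7. In Mdm4Tg it was at 1025 and 535.4 for number 7 and at 106.9 and 62.51 for number 8, and in FancgKO_Mdm4Tg at 797.7 and 376.2 and at 122.4 and 56.13. The FancgKO pair of number 7 had the smallest difference, and the others differed by -0.49 to -1.34 on the log2 scale.

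Egr1 was lower with poly(I:C) in 8 of 9 pairs. In WT it was at 585.8 with PBS and 225.9 with poly(I:C) for number 6, at 521.7 and 459.9 for number 7, and at 57.98 and 12.52 for number 8. In FancgKO_Mdm4Tg it was at 583 and 236 for number 7 and at 56.11 and 16.51 for number 8, and in Mdm4Tg at 901.6 and 609.6 and at 47.16 and 19.4. The libraries labelled FancgKO gave 366.6 and 129.3 for number 6, and 411.6 and 488.4 for number 7, the only pair in which Egr1 was higher with poly(I:C).

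Fos followed the same order, lower in 8 of 9 pairs. In WT it was at 3239 and 1768 for number 6, at 2467 and 2452 for number 7, and at 167 and 73.22 for number 8. In the libraries labelled FancgKO it was at 2448 and 1241 for number 6 and at 2009 and 2259 for number 7. In Mdm4Tg it was at 4035 and 2789 for number 7 and at 173.6 and 126.9 for number 8, and in FancgKO_Mdm4Tg at 2646 and 1507 and at 193.8 and 91.51. The WT and FancgKO pairs of number 7 thus showed next to no loss, in contrast to those of number 6. Jun, Ier2 and Dusp1 were lower in 9 of 9 pairs, Fosb, Junb and Jund in 8 of 9 and Atf3 in 6 of 9. The median over the pairs was -1.30 for Egr1, -0.94 for Zfp36, -0.81 for Fos and -0.39 for Junb. The stem cell and LSK marker list had 10 of 15 genes called lower with poly(I:C) in the same fit, and the granulocyte and monocyte list 11 of 12 tested called higher. The mitochondrial share of reads was higher with poly(I:C) in 8 of the 9 pairs, for example at 5.39% and 9.49% in Mdm4Tg number 8. The exception was FancgKO number 7, at 4.74% and 4.73%. In FancgKO_Mdm4Tg number 7 the share was nearly as flat, at 4.89% and 4.91%. The share of reads on CT010467.1 was lower in 9 of 9 pairs, for example at 1.08% and 0.201% in WT number 6. The part of these markers and shares in the members' differences was not tested.

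**Figure D5:**
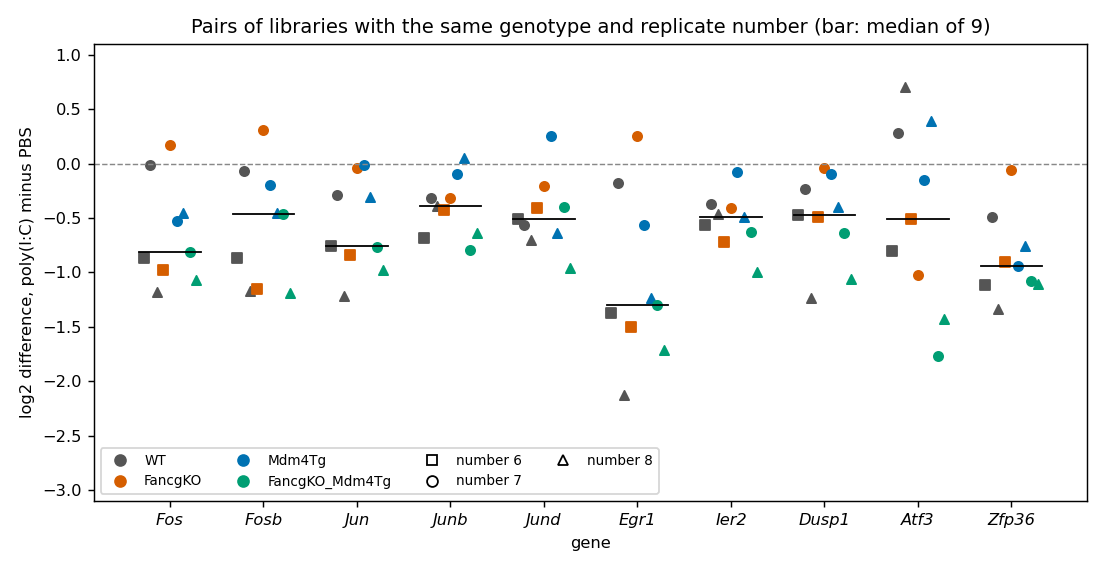
Log2 difference, poly(I:C) minus PBS, in each of 9 pairs of libraries with the same genotype (colour) and replicate number (shape), with a bar at the median. Points lie below 0 in 8 or more of 9 pairs for all members but Atf3 (6 of 9), and in every pair for Jun, Ier2, Dusp1 and Zfp36.

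Within single genotypes the number of libraries limits what can be seen. In WT, limma with group means called 0 members (0.0158% of all genes), with 0 at an unadjusted p under 0.05 and 0 by edgeR or DESeq2. With the replicate number, whose 3 WT pairs deviated together, 3 members were called lower, against 3.63% of all genes. In the WT pairs of numbers 6 and 7 Xist was high with poly(I:C) only, so treatment and Xist cannot be told apart there. Zfp36 fell by 1.14 ± 0.22 (SE, n = 4 and 3; limma adjusted p = 0.00396), Egr1 fell by 1.30 ± 0.30 (limma adjusted p = 0.013) and Jun fell by 0.75 ± 0.17 (limma adjusted p = 0.00969). Fos differed by -0.68 ± 0.23 (limma adjusted p = 0.08). The WT count fell from 3 to 1 without the PBS library of number 8 or without the poly(I:C) library of number 8, and rose to 7 with edgeR and 4 with DESeq2 in the same design. In the libraries labelled FancgKO, 0 members were called with group means and 0 with replicate number, where 0% of all genes were called in either fit, and Jun differed by -0.60 ± 0.18 (limma adjusted p = 0.25 with number).

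With both changes (FancgKO_Mdm4Tg) 0 members and 0% of genes were called with group means. With replicate number 1 member was called lower, against 0.697% of all genes: Egr1 fell by 1.52 ± 0.36 (SE, n = 3 and 2; limma adjusted p = 0.0447). In Mdm4Tg 0 members were called in either fit, where 0% and 4.85% of all genes were, and Zfp36 differed by -0.90 ± 0.26 with number (limma adjusted p = 0.05, not under the threshold). For these 3 genotypes and group means, 0 members reached an unadjusted limma p under 0.05, and 0 were called by edgeR or by DESeq2. The difference of the response between genotypes was tested in itself. It was called for 0 members and 0% of genes by limma with group means, for 0 members by edgeR and by DESeq2, and for 0 members at an unadjusted limma p under 0.05, so the genotypes are not shown to differ.

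Loss of Fancg, averaged over transgene and treatment, left 0 members called by limma with group means, where 0.0158% of all genes were, and 0 with replicate number, where 0.111% were. With the number in the fit all 10 differences were negative, where 49.1% of all genes were positive, and 6 had an unadjusted p under 0.05, as did 6.16% of all genes. Among them were Fos at -0.48 ± 0.13 (SE, n = 12 and 12; limma adjusted p = 0.334) and Jun at -0.33 ± 0.09 (limma adjusted p = 0.381). The members varied together across libraries, so these 10 differences do not count as independent observations. With PBS and the same number, Fos was at 53.4 in WT and 48.56 in the library labelled FancgKO for number 2, at 3239 and 2448 for number 6, and at 2467 and 2009 for number 7. In these 3 pairs the library labelled FancgKO was the lower. For numbers 6 and 7 the gaps were about as large as that between these numbers within a genotype. The PBS pairs of numbers 6 and 7 also differed in Xist, at 24.78 and 3.345 in WT and 7800 and 18007 in FancgKO. Fancg genotype and Xist cannot be told apart in them. With poly(I:C), Fos was at 1768 and 1241 for number 6, at 2452 and 2259 for number 7, and at 73.22 and 75.86 for number 8.

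The Mdm4 transgene, averaged over Fancg genotype and treatment, left 0 members called by limma with group means (0.00792% of all genes) and 0 with replicate number (0.0158%). The difference for Fos was -0.53 ± 1.02 with group means and 0.28 ± 0.14 with number (SE, n = 14 and 10; limma adjusted p = 0.956 and 1). With PBS the single comparisons of FancgKO_Mdm4Tg with FancgKO, of FancgKO_Mdm4Tg with WT and of Mdm4Tg with WT called 0 members each, where 0.00792% of all genes were called in each. FancgKO against WT called 0 members and 0% of genes with PBS and with poly(I:C). These comparisons share libraries. With group means 0 members reached an unadjusted limma p under 0.05 in any of them, and 0 were called by edgeR or by DESeq2.

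Genes around the members were taken from lists chosen with earlier results of these data known. Of 40 other immediate early genes in the table, 31 were tested, and 23 were higher and 1 lower with the ending _d (median difference 1.26, against -0.02 over all genes). Klf6 was higher by 3.03 ± 0.13 and Rgs1 by 2.97 ± 0.22, followed by Btg2, an antiproliferative factor, at 2.28 ± 0.11, and Cd69, an early activation marker of lymphocytes, at 2.10 ± 0.11. Of 10 tested AP-1 relatives 2 were called higher and 2 lower. Fosl2 was higher by 0.68 ± 0.10 and Atf4, the factor of the integrated stress response, by 0.47 ± 0.09, while Atf2 (-0.38 ± 0.05) and Atf7 (-0.23 ± 0.08) were lower. These differences were smaller than those of the 6 AP-1 genes among the members, the lowest of which was 2.42 for Junb.

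Of 13 tested MAP kinase phosphatases and feedback genes, 5 were higher and 2 lower with the ending _d, among them Dusp6 (0.87 ± 0.11), which acts on ERK, and Dusp2 (0.72 ± 0.09), with Spred1, an inhibitor of Ras signalling, lower at -0.59 ± 0.05. Of 27 upstream kinases and factors, 7 were higher and 9 lower. Over all genes 21.7% were higher and 23.6% lower, and the counts of the upstream genes and AP-1 relatives lie near these shares. Creb1, which binds the CRE, was lower at -0.45 ± 0.05 and Elk4, a partner of serum response factor, at -0.42 ± 0.06. Of 19 tested heat shock genes 6 were higher and 5 lower, also near those shares, with the chaperone gene Dnajb1 at 0.96 ± 0.10 and Chordc1 at -0.56 ± 0.07. Hspa1a, the inducible HSP70, was at 0 to 374.4 in the _d libraries and 0 to 65.02 in the _d_2 libraries.

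With poly(I:C), in the fit with replicate number, 16 of the 31 other immediate early genes were called lower and 2 higher (median -0.27, against 0.01 over all genes). Rgs1 fell by 0.90 ± 0.12, Btg2 fell by 0.52 ± 0.10 and Klf6 fell by 0.39 ± 0.12, and Cd69 rose by 0.29 ± 0.09. Csrnp1 and Tob1, which differed little between the endings (-0.02 ± 0.12 each), were called lower already with group means, where Csrnp1 fell by 0.64 ± 0.13 (limma adjusted p = 0.00178) and Tob1 fell by 0.44 ± 0.12 (0.0117). Klf10 fell by 0.61 ± 0.11 and Pim1, a survival kinase, fell by 0.49 ± 0.11 in that fit. Of the MAP kinase feedback genes 4 were called lower and 1 higher with number, of the AP-1 relatives 1 and 0, and of the upstream genes 4 and 4. Over all genes 14.9% were called lower and 16% higher in that fit, and the counts of the AP-1 relatives called lower and of the upstream genes lie near these shares. Mapkapk3 rose by 0.62 ± 0.08 and Mapkapk2, a kinase that acts on tristetraprolin, rose by 0.47 ± 0.09. Of the heat shock genes 12 of 19 were called higher and 0 lower, among them Hspe1, which rose by 0.71 ± 0.14, and Hsp90aa1, which rose by 0.53 ± 0.09.

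Per kilobase of exon (GENCODE M21), Fos was the most abundant member in the _d libraries, with a median of 1042 normalised counts per kilobase (528 to 1715), ahead of Jun at 621 (398 to 908) and Fosb at 430 (176 to 679). The ranges of these neighbours overlapped. The order depends on the length used, which merges all annotated exons (6243 bases for Fosb and 2352 for Fos). Without division by length Fosb had the higher median, at 2687 against 2450 for Fos. Dusp1 (260), Ier2 (230), Jund (205), Zfp36 (169), Egr1 (106) and Junb (93.4) followed, and Atf3 was last at 5.27. In the _d_2 libraries Jun led at 72.2 (47.4 to 141), ahead of Fos at 41.5 (13.5 to 97.4). Between the endings the order of these 2 genes was reversed, with overlapping ranges within the _d_2 libraries. In the annotation (mm10) Fos spans chr12:85473890-85477273 and Jun chr4:95049034-95052222. Jun lies over the antisense gene Junos, Junb (chr8:84974484-84978718) over the coding gene Prdx2 on the opposite strand, Zfp36 (chr7:28376784-28380253) over Gm44710, Jund (chr8:70698949-70700616) over Gm11175, Atf3 over Gm24748, and Dusp1 over Ergic1 and others. Whether counting used strand is not given in the sources used here, so reads of these genes and their overlapping partners cannot be told apart.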

How the data were processed

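The file the authors deposited gives a signal per gene and library, normalised counts per the file name. Per the submitters' processing notes the tools include STAR and the build is mm10. How reads were counted, whether strand was used and how values were normalised is not given in the sources used here. Dividing each library by its smallest positive value gave integers for 100% of values (tolerance 1e-06), and these recovered reads came to 807686 to 8229715 reads per library. Members and gene lists were chosen with earlier results of these data known.

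Log2(normalised count + 1) of the 12628 genes with at least 10 in at least 2 libraries was modelled by 8 group means (limma 3.58.1 under R 4.3.3, trend option on), and Benjamini-Hochberg adjusted p-values under 0.05 were called. Title ending or replicate number was added as a term where stated. As alternatives, edgeR 4.0.16 and DESeq2 1.42.0 were run on the recovered reads, and for the title ending each called 10 members. Fits were also run on simulated data, with the same spread setting for all genes and no differences between replicate numbers beyond the changes put in. They were therefore not checked under differences between numbers like those seen here. Tables and figures used python 3.11.15, pandas 2.3.3 and matplotlib 3.10.9. Named genes are all members, from each list the 4 genes with the smallest p for averaged poly(I:C) and the 4 for replicate number (mean of at least 50), and the 5 genes most alike to each member. Genes named outside this rule (Fancg, Mdm4, Xist, CT010467.1 and cell markers) describe the libraries.

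Replicate numbers were checked as pairs by correlating deviations from group means. Same-numbered libraries correlated at 0.053 to 0.647 (median 0.343, 61 pairs). Libraries of another number with the same ending correlated at -0.252 to 0.516 (median 0.243, 63 pairs). The 3 WT pairs correlated at 0.231 to 0.448 and were treated as paired, though the lowest lies below that median. These values do not separate pairing by number from the shared ending. Of the 9 pairs over all genotypes 8 were above 0.1, so the averaged fit with replicate number is given as a fit with number as a term, not as a paired design. The settings varied were the pseudocount, the filter, the scaling (TMM, quantile), array weights, no trend, only the groups compared, thinned reads and leaving out each library. Fits within 1 ending, comparisons between numbers the joint settings and the shares in matched pairs were chosen after seeing the data.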

Additional observations from a re-analysis of the deposited data

How the results depend on the processing

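Among the fits without the replicate number or title ending, poly(I:C) called 0 members averaged over genotypes under every alternative run, and so did the comparisons within genotypes, the Fancg and Mdm4 comparisons and the difference of the response between genotypes. The replicate block gave 9 members averaged over genotypes, 3 in WT and 1 in FancgKO_Mdm4Tg, and it changed no other count of members called. Title ending as a covariate gave 3 averaged over genotypes. TMM, edgeR and DESeq2 with the block gave 9, 9 and 9 averaged, and 3, 7 and 4 in WT. With the block and 1 library left out the count was 9 to 9 averaged and 1 to 3 in WT. Number 8 against 2 gave 7 members, 3 with edgeR, 1 without the trend, and 3 to 7 with a library left out. Number 7 against 6 gave 0, 1 with a pseudocount of 5, 2 with array weights, 1 with edgeR and 0 to 1 with a library left out (1 without the WT or the FancgKO library with PBS and number 7). The title ending and the replicate number called 9 or 10 members throughout, 9 with a mean of at least 50, which drops Atf3. The averaged poly(I:C) differences, none called with group means, changed sign. With the block they were -0.65 (Fos), -0.61 (Fosb), -0.58 (Jun), -0.42 (Junb), -0.51 (Jund), -0.52 (Ier2), -0.56 (Dusp1) and -0.45 (Atf3), and with the ending -0.34, -0.19, -0.44, -0.13, -0.32, -0.28, -0.28 and -0.36 in that order. In the _d libraries alone they were -0.55, -0.39, -0.43, -0.44, -0.25, -0.44, -0.34 and -0.74, and in the _d_2 libraries alone -0.18 (Fos), -0.03 (Fosb), -0.5 (Jun), -0.38 (Jund), -0.11 (Ier2) and -0.28 (Dusp1). edgeR gave -0.07 (Fos), -0.06 (Jun), -0.05 (Junb), -0.09 (Ier2) and -0.54 (Atf3), DESeq2 -0.07, -0.06, -0.04, -0.08 and -0.4, array weights 0.05 (Egr1) and 0.11 (Zfp36), and quantile normalization -0.07 (Atf3). With 1 library left out the group-means values ran from -0.12 to 0.99 (Fos), -0.32 to 0.45 (Jun), -0.02 to 0.57 (Junb), -0.23 to 0.44 (Jund), -0.98 to 0.25 (Egr1), -0.22 to 0.46 (Ier2), -0.14 to 0.58 (Dusp1), -0.28 to 0.64 (Atf3) and -0.64 to 0.13 (Zfp36). The cause was not tested. Atf3, with 0 to 2 reads in each _d_2 library, is limited by depth there.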

Other observations

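The FancgKO library with PBS and number 4 had the highest level of Fos, Jun, Junb, Egr1 and Zfp36 among the 12 libraries ending in _d_2, at 229.1, 450.8, 74.52, 292.5 and 244 normalised counts. Egr1 stood furthest out, since the next _d_2 library reached 57.98. It is the only library with its number, and it also had the highest share of reads on CT010467.1, at 6.12%, where the 24 libraries ran from 0.179%.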
